A study of Arabidopsis thaliana with 6 samples.

Results

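Of the 19807 genes in the deposited table, 4 were selected on their measured levels, near zero in all Col-0 wild type libraries and clearly present in all prp8a-14 libraries: AT5G27010, AT3G28520, AT3G60176 and AT4G15040. The choice used the same contrast that shows their rise, so their levels are given as a description, with no test. The samples were whole Arabidopsis thaliana seedlings of the Col-0 ecotype, 8 days old, grown on a plant nutrient medium in continuous light, with 3 biological replicates of wild type (replicates 1 to 3) and 3 of prp8a-14 (replicates 4 to 6). No other agent or allele is named in the labels, and a second allele or a rescued line of PRP8A is not analysed here. Poly-A RNA was sequenced, and the values are counts recovered from the deposited log2 values and the same counts divided by a library size that the authors scaled, as CPM. The genotype field of the mutant samples spells the allele prp8-14 and the titles prp8a-14.

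PRP8 is the central protein of the spliceosome, where it holds the U5 and U6 RNAs and the splice sites of the intron in the catalytic core, and PRP8A is the main gene of it in Arabidopsis. A gene that gives almost no poly-A RNA may be untranscribed, transcribed only in other organs, or transcribed into RNA that is soon degraded, and bulk counts do not separate these. In plants, repeats and some gene copies are kept silent by DNA methylation and small RNAs. Bulk counts from whole seedlings also cannot tell more RNA per cell from more cells that hold it.

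The 4 genes belong to different families. AT5G27010 is described in the table as an ARM repeat superfamily protein; ARM repeats form a helical scaffold that binds other proteins. AT3G28520 is described as a P-loop containing nucleoside triphosphate hydrolase, a class of proteins that use the energy of ATP or GTP. AT4G15040 is described as a subtilisin-like serine endopeptidase, of a family of mostly secreted plant proteases. These 3 have the biotype protein_coding. AT3G60176 has the description "other RNA" and the biotype ncRNA, which 83 of the listed genes carry. None has a gene symbol. In the RefSeq annotation of assembly TAIR10.1, matched by gene ID, AT5G27010 has 19 exons on the minus strand of chromosome 5 and AT4G15040 has 10 exons in the longer of 2 transcripts, on the minus strand of chromosome 4. AT3G28520, on the plus strand of chromosome 3, and AT3G60176, on its minus strand, have 1 exon each and so hold no annotated intron to be spliced. Over the 19686 listed genes in that annotation, 15.7% have 1 exon and 19.6% have at least 10. Of the 27 annotated introns of AT5G27010 and AT4G15040, 26 run from GT to AG. The exception is the first intron of AT4G15040, 142 bases long and present only in the longer transcript, which starts with GC, a rare site pair held by 1.02% of 99094 introns of the listed genes. Its first and last 10 bases are shown because it is the only unusual site pair in the 4 genes, with the site pair in capitals.
First intron of AT4G15040, first bases at the 5′ end, chr4:8584138-8584279, minus strand: GCaagtcatt
First intron of AT4G15040, last bases at the 3′ end: catgacgcAG

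Of the 4 genes, 3 have close relatives elsewhere in the genome, which bears on how their counts can be read. The next sequences show, for each, a stretch of 150 bases (the read length in the labels) of its exons beside another place in the RefSeq TAIR10.1 genome. It is the closest ungapped stretch of that length within 1 sequence match, with differing bases in capitals. The coordinates belong to TAIR10.1; the deposited table holds no coordinates and its build was not given in the sources used here.
AT5G27010, chr5:9503501-9503650, minus strand: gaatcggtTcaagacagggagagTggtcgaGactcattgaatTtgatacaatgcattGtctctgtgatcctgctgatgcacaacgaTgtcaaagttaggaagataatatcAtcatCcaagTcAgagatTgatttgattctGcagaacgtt
AT5G06350, chr5:1943859-1944008, plus strand: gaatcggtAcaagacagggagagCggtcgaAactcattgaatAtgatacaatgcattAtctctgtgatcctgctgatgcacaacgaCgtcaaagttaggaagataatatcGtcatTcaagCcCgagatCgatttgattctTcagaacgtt
AT3G28520, chr3:10689034-10689183, plus strand: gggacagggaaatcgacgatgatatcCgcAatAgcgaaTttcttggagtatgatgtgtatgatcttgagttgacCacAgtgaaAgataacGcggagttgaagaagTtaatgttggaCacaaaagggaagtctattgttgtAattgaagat
AT3G28540, chr3:10695188-10695337, plus strand: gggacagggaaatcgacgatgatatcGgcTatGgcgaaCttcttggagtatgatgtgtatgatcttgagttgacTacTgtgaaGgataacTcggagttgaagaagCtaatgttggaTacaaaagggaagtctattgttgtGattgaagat
AT3G60176, chr3:22240161-22240310, minus strand: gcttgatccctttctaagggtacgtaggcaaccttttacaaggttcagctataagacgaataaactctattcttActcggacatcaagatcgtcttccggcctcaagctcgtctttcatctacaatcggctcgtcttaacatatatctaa
AT2G10735, chr2:4224629-4224778, plus strand: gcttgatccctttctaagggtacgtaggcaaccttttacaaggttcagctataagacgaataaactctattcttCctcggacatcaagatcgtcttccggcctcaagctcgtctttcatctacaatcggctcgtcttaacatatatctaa
The closest stretches differed at 12 bases for AT5G27010 and at 11 bases for AT3G28520. Matches shorter than 150 bases were not compared in this way, among them 131 bases of AT5G27010 at 93.9% identity to AT5G06350. Reads that cross exon joins may therefore lie closer to the relative than these stretches show. For AT3G60176 the closest stretch, in the transcribed pseudogene AT2G10735, differed at 1 base. Exact runs shared with another place reached 55 bases in AT5G27010, 36 in AT3G28520, 88 in AT3G60176 and 14 in AT4G15040. Of all windows of 50 bases, 12.7% in AT3G60176, 0.28% in AT5G27010 and 0 in AT3G28520 and AT4G15040 were found exactly at another matched place. AT3G60176 gave 123 sequence matches on 5 chromosomes, 44 of them outside any annotated gene, so much of its sequence is repeated in the genome. Several matches can fall at 1 locus, such as 9 in AT1G24851, so the separate places are fewer. The authors' counting of reads with several places in the genome was not given in the sources used here, and the value of AT3G60176 is therefore uncertain.

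Library totals over the listed genes were 49126331 to 63069817 counts. PRP8A itself, the mutated gene, was present in every library, at 389 to 433 CPM in Col-0 and 466 to 537 CPM in prp8a-14, a log2 change of 0.28 (SE 0.06, limma with BH, adjusted p = 0.0031), so its level does not check which seedlings carried the allele.

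AT5G27010 gave 0, 3 and 4 counts in Col-0 replicates 1 to 3, against 553, 520 and 744 in prp8a-14 replicates 4 to 6. As CPM it stood at 0.0427 ± 0.0376 (SD, n = 3) in Col-0, against 11.0 ± 1.00 (SD, n = 3) in the mutant. No library overlapped between the genotypes. AT5G27010 was the highest of the 4 genes in every mutant library, and its mutant level lay above that of 36.8% of the listed genes. AT3G28520 had 2, 0 and 3 counts in Col-0, against 206, 177 and 235 in prp8a-14. In the mutant its 3 libraries were alike, at 3.73, 3.75 and 3.79 CPM, a coefficient of variation of 0.893% where counting error alone gives about 6.97%. AT3G60176 had 4, 6 and 0 counts in Col-0, against 147, 127 and 197 in prp8a-14, which is 2.66, 2.69 and 3.18 CPM. Its replicate 6 was the highest of the mutant libraries. AT4G15040 had the least silent wild type, with 5, 10 and 9 counts, and 260, 217 and 260 counts in prp8a-14. Its mutant level was 4.50 CPM ± 0.267 (SD, n = 3).

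**Figure D1:**
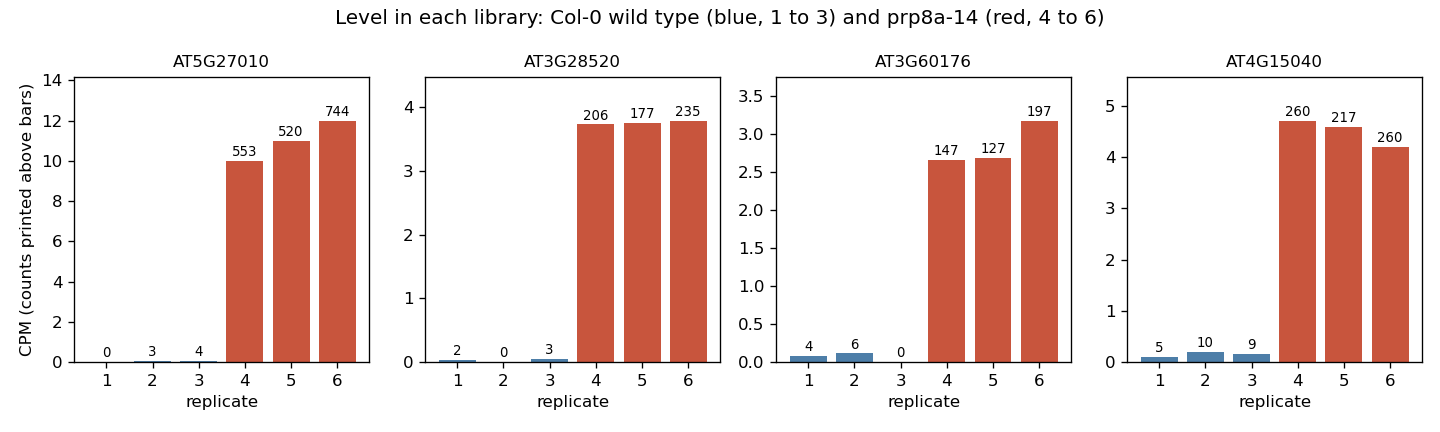
Level of the 4 genes in each library, in CPM on a linear axis from 0, with the recovered count above each bar; blue bars are Col-0 wild type replicates 1 to 3 and red bars prp8a-14 replicates 4 to 6. Wild type held at most 10 counts of any of the genes in a library, and prp8a-14 at least 127.

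In all 4 genes every mutant library lay above every wild type library, a pattern that 24.3% of all listed genes showed and that the choice of the 4 genes fixes. Over all genes 35.2% passed limma with BH at an adjusted p under 0.05, in either direction. The ratio of pooled levels ran from 30.2 in AT4G15040 (exact 95% counting interval 20.1 to 47.5) to 255 in AT5G27010 (124 to 636), with 122 in AT3G28520 (51.8 to 376) and 46.3 in AT3G60176 (25.0 to 97.3). The intervals cover counting error only. Since only 5 to 24 counts over the 3 libraries make up the wild type level of each gene, 1 library can move a ratio by over 1.5 times: with Col-0 replicate 3 left out the ratio was 388 for AT5G27010, 198 for AT3G28520 and 30.1 for AT3G60176, and with Col-0 replicate 2 left out it was 78.3 for AT3G60176. The limit that a count of 0 allows, 3 counts, is 0.0531 to 0.0573 CPM in the wild type libraries. In single wild type libraries the values of AT5G27010 and AT3G28520 lay near or under what these libraries could measure. AT3G60176 lay under it in Col-0 replicate 3, at 0 counts. Per kilobase of exon, the mutant levels were 4.25 CPM ± 0.386 (SD, n = 3) for AT5G27010, 2.81 ± 0.289 for AT3G60176, 2.61 ± 0.0233 for AT3G28520 and 2.12 ± 0.126 for AT4G15040. On this scale AT3G60176 and AT3G28520 overlapped between libraries, and the other neighbours in the order did not. The protein-coding models of the 3 genes are marked partial in RefSeq, with missing ends, so these levels per kilobase may be too high.

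Across the whole table, the pattern of a gene nearly off in wild type was rare. A wild type level under 0.2 CPM together with a level at least 10 times higher in prp8a-14 was found for 6 of 19807 genes, or 0.0303%. Beside the 4 members these were AT3G43470, described as a zinc ion and nucleic acid binding protein, with 0, 0 and 0 counts in Col-0, against 30, 48 and 68 in prp8a-14, and SUC6, a putative sucrose transporter with similar relatives, with 0, 0 and 3 counts and 40, 46 and 32. Both stayed under the members in the mutant, at 0.886 CPM ± 0.299 and 0.738 CPM ± 0.229 (SD, n = 3). AT3G43470 was at least 47.9-fold higher, taking 3 counts over the wild type group as its limit, and SUC6 had a ratio of 38.7 (12.9 to 190). In the authors' deposited table these 6 genes have the 6 largest log2 rises: AT5G27010 ranks 1 (8.24), AT3G28520 ranks 2 (6.95), AT3G43470 ranks 3 (6.61), AT3G60176 ranks 4 (5.96), SUC6 ranks 5 (5.43) and AT4G15040 ranks 6 (4.89). The authors' values come from the same libraries by which the 6 genes were picked, so these ranks largely follow from that rule. The table itself shapes the count of 6. Only 10 listed genes had a wild type level under 0.2 CPM, and 6 of these 10 met the ratio. Only 20 were under 0.5 CPM in wild type, and only 3 were under it in both genotypes. A gene silent in wild type is therefore listed almost only where it is present in the mutant. The mirror pattern, nearly off in prp8a-14 and at least 10 times higher in wild type, was met by FLC, the repressor of flowering, with 385, 387 and 416 counts in Col-0, against 18, 5 and 0 in the mutant. FLC was 1 of only 3 listed genes under 0.2 CPM in prp8a-14.

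**Figure D2:**
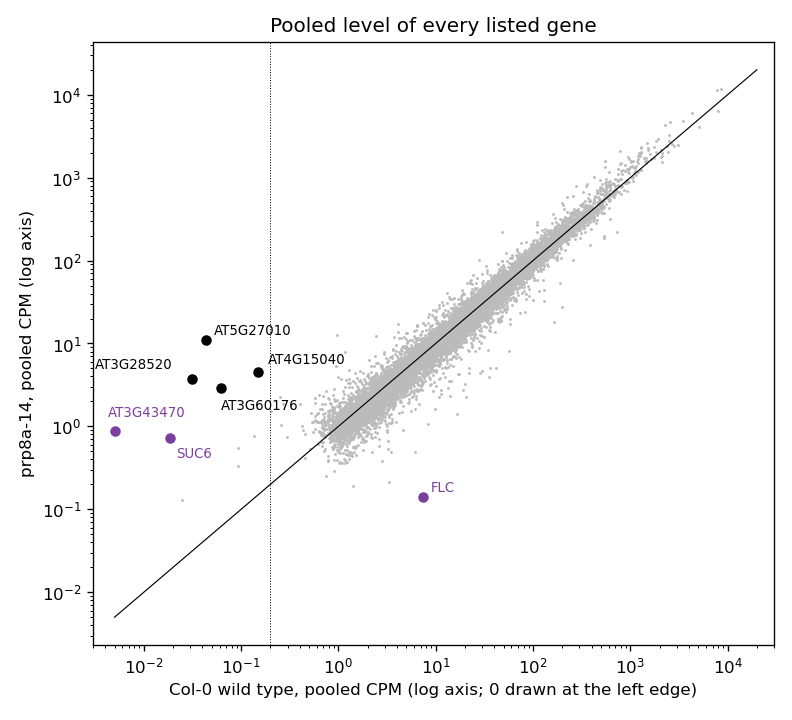
Pooled level of each listed gene in Col-0 wild type (horizontal, CPM) and prp8a-14 (vertical, CPM), both on log axes, with the line of equal levels and a dotted line at 0.2 CPM; the members are black and the other genes that pass the rule in either direction are purple. The 4 members stand at 2.84 to 11.0 CPM in the mutant, above AT3G43470 and SUC6, in a part of the plot that holds few genes.

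Just inside the wild type limit lay AT4G15040, with a mean of 0.148 CPM. Its ratio of 30.2 was the lowest of the members but well above the ratio limit of 10. Just outside lay AT2G40955 at 0.204 CPM with a ratio of 7.57, the histone acetyltransferase gene HAC2 at 0.253 CPM with a ratio of 8.81, and the seed storage protein gene CRC at 0.272 CPM with a ratio of 6.84. Under the wild type limit but short of the ratio were the seed storage protein genes CRB (5.97) and AT2S3 (5.68) and AT4G29200 (5.16), the last at 0.0247 CPM in wild type and 0.128 CPM in prp8a-14. By Euclidean distance over the log2 values of the 6 libraries, the nearest genes to AT5G27010 were the other 3 members, at 4.54 to 5.68. The nearest to AT3G28520 were AT5G27010 (4.54), SUC6 (4.78) and AT3G60176 (4.78). AT3G60176 was nearest to AT2S3 (4.01), AT4G15040 (4.48) and HAC2 (4.58), and AT4G15040 to AT2G40955 (2.85), HAC2 (2.87) and the gibberellin oxidase gene GA20OX3 (3.64). The distances use the same values on which the members were chosen, so likeness among the members follows in part from the choice. Distances between genes near 0 also depend on the 0.5 added to each count.

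The closest relative of AT5G27010 is AT5G06350, also described as an ARM repeat superfamily protein, with the same number of exons (19) and a mean identity of 87.0% over 2624 aligned bases. AT5G06350 was expressed in both genotypes, with 1140, 1046 and 1190 counts in Col-0, against 1309, 1033 and 1463 in prp8a-14. Its level was 20.9 CPM ± 0.805 in Col-0, against 23.1 CPM ± 1.03 (SD, n = 3) in the mutant, with groups that did not overlap but a log2 change of 0.14 (SE 0.06, limma with BH, adjusted p = 0.086) that did not pass. AT5G27010 made up 0, 0.286 and 0.335% of the summed level of the pair in Col-0, against 29.7, 33.5 and 33.7% in prp8a-14, and the sum went from 20.9 CPM ± 0.783 to 34.1 CPM ± 1.41 (SD, n = 3). Among the 65 other listed genes described as ARM repeat superfamily proteins, 10 rose and 8 fell, with a median log2 change of 0.01 and a range of -0.63 to 1.65. Over all genes 17.9% rose and 17.3% fell at an adjusted p under 0.05 (limma with BH), with a median of 0.0037.

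AT3G28520 stands in a row of related genes on chromosome 3. The relatives described here were found by sequence match after values of these data were seen. Its closest relative, AT3G28540, 2 places away and 82.6% identical over 1401 aligned bases, is described as an AAA-ATPase, a kind of protein that uses ATP to remodel other proteins. AT3G28540 fell from 395, 423 and 558 counts in Col-0 to 220, 209 and 212 in prp8a-14, with groups that did not overlap. Its level went from 8.47 CPM ± 1.25 to 3.94 CPM ± 0.502 (SD, n = 3), which is a difference on the log2 scale of -1.10 (SE 0.14, limma with BH, adjusted p = 7.9e-05). The next relative, AT3G28510, directly before AT3G28520 and 78.5% identical over 1291 bases, had 189, 131 and 210 counts in Col-0, against 151, 100 and 165 in the mutant, with a change of -0.37 (limma with BH, adjusted p = 0.15) that did not pass. It passed without wild type replicate 2 (-0.55, limma with BH, adjusted p = 0.041). AT3G28520 and AT3G28540 together gave 7.51, 8.08 and 9.93 CPM in Col-0, against 7.71, 8.17 and 7.22 in prp8a-14, sums that overlapped between the genotypes. AT3G28520 held 0.504, 0 and 0.535% of that sum in Col-0, against 48.4, 45.9 and 52.6% in the mutant. With AT3G28510 in place of AT3G28540, the sums were 3.61, 2.5 and 3.77 CPM in Col-0, against 6.46, 5.86 and 6.46 in prp8a-14, without overlap. The sums were looked at after the values of these genes were seen, and whether reads moved between the copies in counting was not tested.

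**Figure D3:**
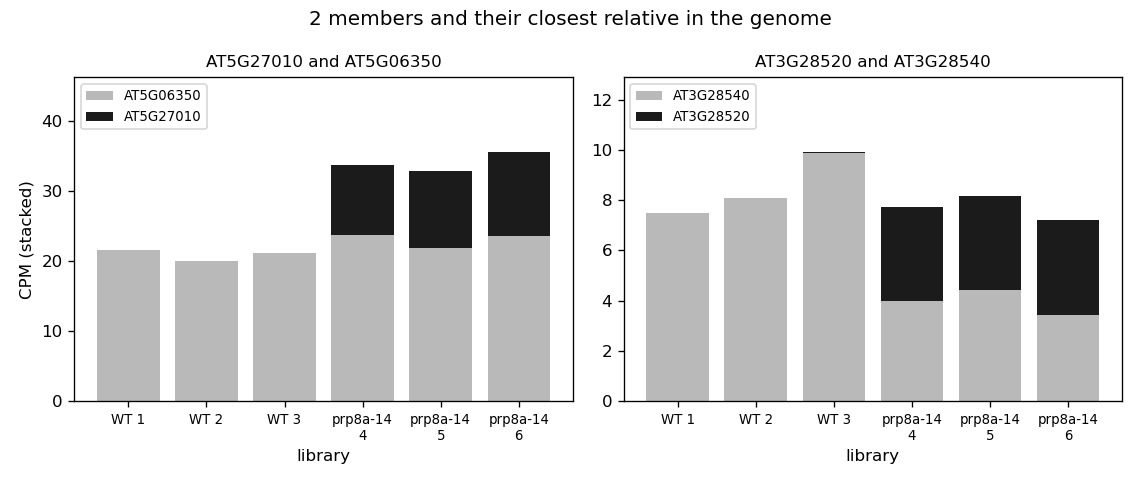
Stacked CPM per library of AT5G27010 (black) on its closest relative AT5G06350 (grey), left, and of AT3G28520 (black) on AT3G28540 (grey), right, on linear axes from 0; WT is Col-0 wild type. On the left the mean sum goes from 20.9 to 34.1 CPM while the relative goes from 20.9 to 23.1 CPM, and on the right the sums overlap at 7.22 to 9.93 CPM while the relative is lower in each mutant library.

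The wider family of AT3G28520, the AAA-ATPases related to the mitochondrial protein BCS1, had 12 other listed members of 24. Of these 1 rose, 2 fell and 9 did not pass, with a median log2 change of -0.04, beside 17.9% risen and 17.3% fallen over all genes. AT4G30250 rose from 4.13 CPM ± 0.424 to 6.73 CPM ± 0.470 (SD, n = 3), which is a difference on the log2 scale of 0.71 (limma with BH, adjusted p = 0.00069). AT2G18193 fell by 0.82 (limma with BH, adjusted p = 0.00076), and the other gene that fell was AT3G28540. AATP1, for a mitochondrial AAA-ATPase, had a change of -0.08 (limma with BH, adjusted p = 0.77). The genes AT3G28560, AT3G28570, AT3G28600 and AT3G28610 from the same stretch of chromosome 3 match AT3G28520 in sequence and are not among the listed genes.

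AT4G15040 has no close copy: its best matches covered 21.3% of its exons, in other subtilase genes. Of 57 other subtilase genes 31 were listed, of which 6 rose, 6 fell and 19 did not pass, with a median log2 change of -0.05. These counts lie near the all-gene shares of 17.9% risen and 17.3% fallen. The largest rises past the test were those of SBT4.1 (0.36), SBT1.2, also called SDD1, a protease that limits the number of stomata (0.35), and SBT1.3 (0.34). The largest falls past the test were those of SBT3.4 (-0.99), SBT3.13 (-0.46) and SBT4.11 (-0.31), the last of which matches part of AT4G15040 in sequence. SBT1.2 did not pass when Col-0 replicate 2 or mutant replicate 6 was left out or with library totals. SBT3.4 did not pass when any 1 Col-0 library or mutant replicate 5 was left out or with quantile normalization, nor SBT4.11 when Col-0 replicate 1 was left out. With library totals in place of the scaled sizes 12 subtilase genes fell. AT4G15040 overlaps AT4G15030 on the opposite strand, and 712 of its 2120 exon bases lie in exons of that gene. AT4G15030 had 1460, 1380 and 1536 counts in Col-0, against 1496, 1557 and 2007 in prp8a-14, overlapping groups with a log2 change of 0.18 (SE 0.07, limma with BH, adjusted p = 0.072). It passed without mutant replicate 4 (0.27, limma with BH, adjusted p = 0.0036). Whether the counting used strand was not given in the sources used here, so reads of these genes in the shared part cannot be told apart.

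AT3G60176, the non-coding RNA, had 4 listed genes among the 28 annotated genes its repeat sequence matched. PYRD, for an enzyme of riboflavin synthesis, rose by 0.39 (limma with BH, adjusted p = 0.00016), and PROC1, for the last enzyme of proline synthesis, fell by 0.32 (limma with BH, adjusted p = 5.6e-05). For AT5G17165 (0.20) and AT4G20690 (0.25) the test was not passed, though AT4G20690 passed in limma without trend. Among the 82 other listed genes with the biotype ncRNA, 5 rose and 12 fell, with a median of -0.04, while 17.9% of all genes rose and 17.3% fell. The highest log2 change among them was 0.77.

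Of the 40 annotated genes within 5 places of a member on either side, 19 were listed, and of these 3 rose, 1 fell and 15 did not pass, where over all genes 17.9% rose and 17.3% fell. The counts differed between members: 3 of the 7 listed neighbours of AT3G60176 rose and none of the other members' did. Around AT5G27010 the listed neighbours were KIN14G, for a kinesin motor, TPR3, for a transcriptional co-repressor, and DI19-6, with log2 changes of -0.08, -0.10 and -0.04 that did not pass; TPR3 passed with library totals (-0.20) and without mutant replicate 4 (-0.18). KIN14G directly beside AT5G27010 had 906, 1105 and 1036 counts in Col-0, against 980, 865 and 1068 in prp8a-14. The risen neighbours all lay beside AT3G60176: DRP1E, for a dynamin-related protein (0.33, limma with BH, adjusted p = 0.00050), AT3G60200 (0.22, limma with BH, adjusted p = 0.039) and CPN10-1, for a chloroplast co-chaperonin (0.24, limma with BH, adjusted p = 0.010). AT3G60200 did not pass when Col-0 replicate 1 or 3 or mutant replicate 4 or 5 was left out, and neither AT3G60200 nor CPN10-1 passed with library totals. UMK1, for a nucleotide kinase and the nearest listed gene to AT3G60176 by place, had a change of -0.01 (limma with BH, adjusted p = 0.95). The listed neighbours of AT4G15040 ranged from -0.10 to 0.18, with none past the test. Among them RPL27C, for a ribosomal protein (-0.10), passed with library totals (-0.19), with quantile normalization (-0.17) and without mutant replicate 6 (-0.12).

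**Figure D4:**
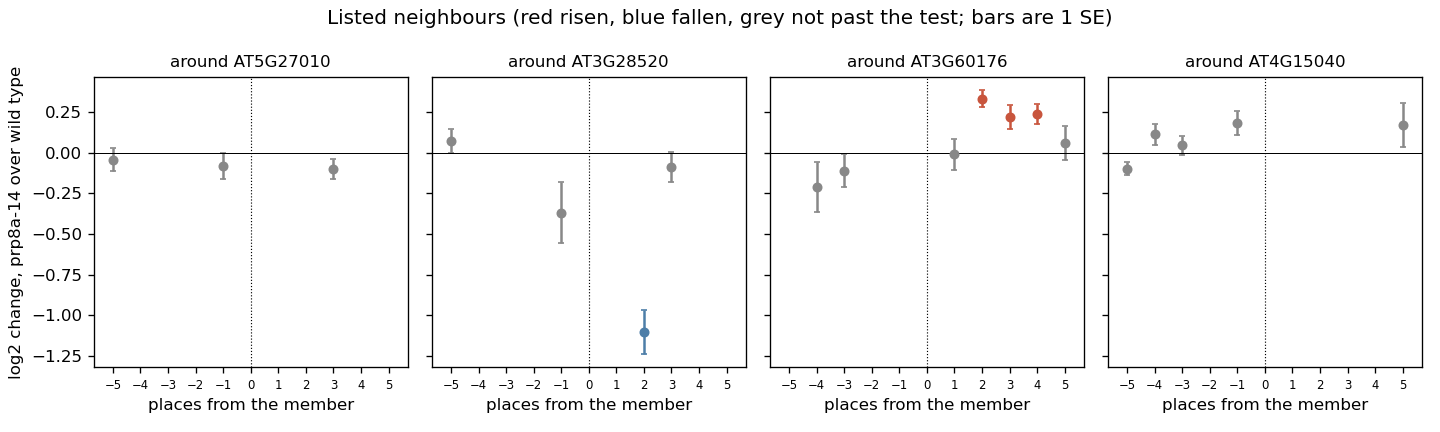
Log2 change of the listed genes within 5 annotated places of each member, by place along the chromosome (0 is the member, not drawn); points are estimates of limma and bars 1 SE. AT3G28540 beside AT3G28520 is the lowest at -1.10 and DRP1E beside AT3G60176 the highest at 0.33.

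In a list of DNA methylation and silencing factors, CMT2 had the largest called change. All 21 genes of this list were listed. Of these 4 rose, 2 fell and 15 did not pass, beside 17.9% risen and 17.3% fallen over all genes. Their median log2 change was 0.14, beside 0.0037 over all genes. CMT2, a methyltransferase that acts mainly on repeats, fell from 48.2 CPM ± 1.48 to 33.6 CPM ± 2.31 (SD, n = 3), which is a difference on the log2 scale of -0.52 (SE 0.06, limma with BH, adjusted p = 3.4e-05). NRPD1, the largest subunit of the plant RNA polymerase that starts small RNA production, fell by 0.29 (limma with BH, adjusted p = 0.041), but did not pass when Col-0 replicate 1 or 3 or any 1 mutant library was left out, in limma without trend and with quantile normalization. The rises were those of ORTH2 (0.21), a factor for the upkeep of DNA methylation, RDM3 (0.19), NRPD2 (0.17) and AGO4 (0.15). Neither ORTH2 nor NRPD2 passed in limma without trend or when Col-0 replicate 2 or 3 or mutant replicate 4 was left out, and NRPD2 also not without mutant replicate 6 or with quantile normalization. With library totals 0 of the 21 rose, by limma with BH, so these rises depend on the scaling. DDM1 and the maintenance methyltransferase gene DMT1, also known as MET1, stood at 0.13 and 0.10, not past the test.

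**Figure D5:**
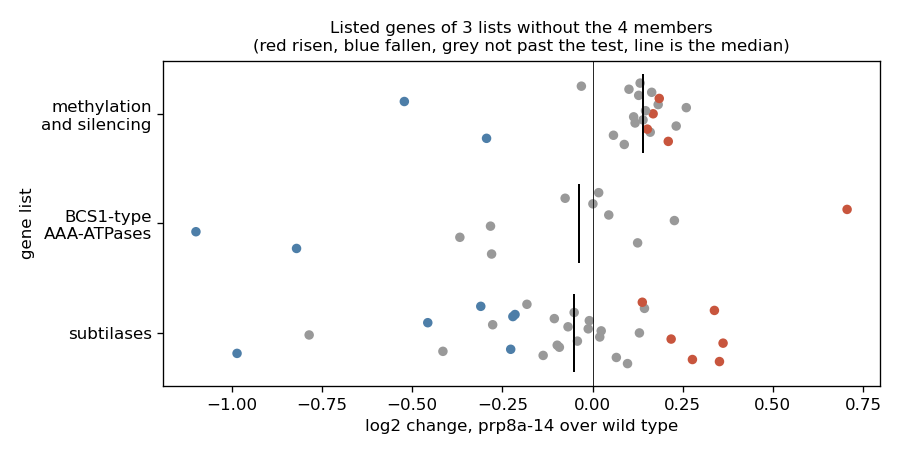
Log2 change of each listed gene of 3 lists, without the members, from limma; each point is a gene, red risen, blue fallen and grey not past the test, and the black line is the median of the list. The medians lie at -0.05, -0.04 and 0.14, and CMT2 (-0.52) is the lowest of the silencing factors.

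Marker lists are given beside the members, and over all genes 17.9% rose and 17.3% fell. Of 14 seed and embryo markers 10 were listed, of which 9 rose and 0 fell. Some were near zero in wild type, such as CRB at 0.0933 CPM and AT2S3 at 0.139 CPM. A gene this low in wild type is listed almost only where it is present in the mutant. Such rises are therefore partly fixed by the listing. The summed level of the listed seed markers ran from 4.75 to 8.63 CPM in wild type and 13.8 to 25.8 CPM in prp8a-14. The mutant libraries differed, with 201, 29 and 76 counts of CRC in replicates 4 to 6. The embryo regulators LEC1, LEC2 and FUS3 are not among the listed genes. All 10 shoot markers rose (28300 to 29900 CPM in wild type, 39200 to 43900 in prp8a-14). Of 10 root markers 9 were listed, of which 1 rose and 5 fell (221 to 246 CPM, and 195 to 213). The flower and pollen markers listed were 2 of 10, SEP3 and PPA3, which both fell; neither passed when Col-0 replicate 2 was left out, SEP3 also not without Col-0 replicate 3 and PPA3 not without mutant replicate 4. AT2S3, the seed marker nearest in pattern to AT3G60176, had 16, 6 and 0 counts in Col-0, against 64, 23 and 40 in the mutant, and did not pass when mutant replicate 4 or 6 was left out or in limma without trend. The part of these shifts in the levels of the members was not tested.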

How the data were processed

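Poly-A RNA of 6 seedling libraries was copied with random hexamers and sequenced as read pairs, per the labels' protocols. Tools listed in the submitters' processing notes, without their roles, are limma, edgeR, Salmon 0.8.2, STAR 2.5.1a, featureCounts 1.4.6-p5, Subread and bcl2fastq. The deposited values are log2 of CPM with 0.5 added to each count, as the values themselves show: 100% came back as whole counts within 0.1. Per the file headers, the authors' table also holds their log2 fold change, a linear fold, p-values and a moderated score. The table has 3 more sample columns that fit no label and stayed unused; the authors' fit and scaling may have used them. Of 20079 lines, 272 repeat a gene and were dropped.

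The 19807 genes were fitted with limma 3.58.1 in R 4.3.3 (trend, two-sided, Benjamini-Hochberg, BH, adjusted p under 0.05 called), the branch planned for log2 values. On simulated counts of this comparison for 19807 genes the fit recovered 70% of changes of 1.25-fold, 98% of 1.5-fold and 100% of 2-fold, and 5 of 189 calls were of unchanged genes, at 1 dispersion for all genes. The changed genes were few, all raised and not near zero, and the dispersion came from wild type alone. These shares need not hold for the measured libraries. Ratios are of pooled CPM, with exact binomial intervals at 95%. Copies were searched with blastn 2.17.0 (E up to 1e-10) in the RefSeq TAIR10.1 genome, which also gave gene order and models. Libraries of a genotype differed beyond sampling noise (chi-square per degree of freedom 8.00 to 15.8).

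Members, lists and limits were chosen with earlier results of these data known. Named were the members, their 2 nearest listed neighbours on each side, other genes with the off-to-on pattern, the 3 nearest genes by distance, and up to 3 called genes each way per list; near copies, factors without a call and genes just outside the limits were named after their values were seen. GLR2.1 (0.02), PAT19 (0.05), AT4G15020 (0.05), AT4G15070 (0.17), ABCC9 (-0.11), AT3G60150 (-0.21), AT3G28480 (0.07) and AT3G28550 (-0.09) are other near neighbours; none passed, though AT3G28550 did with quantile normalization and AT3G60150 in limma without trend. Symbols came from the table and RefSeq. Alternatives were library totals, only genes averaging at least 1 CPM, quantile normalization, pseudocounts of 0.1 and 1 CPM, limma without trend, voom on recovered counts, other limits and windows, and each library left out.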

Additional observations from a re-analysis of the deposited data

How the results depend on the processing

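No paired analysis was possible because the labels number the libraries 1 to 6 and no number is shared between genotypes. Low counts in wild type limit the ratios: leaving out 1 library in turn, they ran from 172 to 388 for AT5G27010, 82.2 to 198 for AT3G28520, 30.1 to 78.3 for AT3G60176 and 25.7 to 35.0 for AT4G15040, and with library totals they were 114 for AT3G28520 and 28.3 for AT4G15040. Genes with the off-to-on pattern numbered 6 to 8 with a library left out, and the 4 members were among them each time; with a wild type limit of 0.1 CPM 3 members met it. With library totals 2110 genes rose and 5854 fell, and the median log2 change of all genes was -0.091; with a library left out 2806 to 3292 rose and 2599 to 3124 fell. With a library left out 4 to 6 subtilases rose and 4 to 7 fell, 1 to 2 AAA-ATPases rose and 2 to 4 fell, 2 to 6 silencing factors rose and 1 to 2 fell, and 2 to 3 neighbours rose and 1 to 2 fell. Library totals gave 12 fallen subtilases, 0 risen silencing factors, and 1 risen and 3 fallen neighbours. Limma without trend gave 2 risen and 1 fallen silencing factors and 2 fallen neighbours, and quantile normalization 1 fallen silencing factor and 3 fallen neighbours. With 2 places on either side 1 neighbour rose, and with 10 places 6 rose and 5 fell. The causes were not tested. Over 56 single genes and up to 13 alternatives, 673 of 726 values kept their side of the threshold, 43 lost the call, 10 gained it and 0 reversed; AT3G28540 stayed between -1.20 and -0.94 and kept its call in each.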
